A study of Mus musculus with 9 samples.

Results

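The genes described here are 37 interferon-induced antiviral effectors, measured in macrophages from fibrosarcomas and from the peritoneal cavity of mice. They were taken as every array probe that the scanner files label with 1 of these gene symbols. 36 of the 37 were found, on 46 of the 55681 probes of the array (36492 gene names in all). Ifi205, a DNA-binding PYHIN protein, had no probe under its own name and has no value here. Each of the 36 others had a probe that the scanner software called well above background in every replicate of 1 group or more, and the brightest such probe stood for the gene.

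The study compared 3 groups of 3 C57BL/6J mouse samples by 1-colour microarray of total RNA, and describes the replicates as biological. Control peritoneal exudate cells (PECs) came from the peritoneum, and 2 subsets of tumour-associated macrophages (TAMs) came from fibrosarcoma, separated by high or low surface F4/80, the macrophage antigen encoded by Adgre1. All 9 samples are labelled macrophages, and no genotype, drug treatment, age or sex is given for any group. Every TAM differs from every PEC in tissue as well as in tumour exposure, so these cannot be told apart. The labels do not name the tumour line, say how the peritoneal cells were obtained or how F4/80 was gated, or say whether animals were pooled.

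Type I interferons are secreted when cells detect viral or misplaced nucleic acid. Type I interferon (interferon beta and the alphas) signals through the receptor chains Ifnar1 and Ifnar2 and the kinases Jak1 and Tyk2 to a complex that holds Stat2 and Irf9 and binds a DNA element called the interferon-stimulated response element (ISRE). Type II interferon (interferon gamma) uses another receptor, made of Ifngr1 and Ifngr2, and acts through the gamma-activated site (GAS). The target genes described here block virus entry, destroy or hide RNA, starve virus of nucleotides, tag proteins with ISG15 or hold virions at the cell surface, and macrophages are among the cells that express them strongly after interferon.

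To show the element behind the name of the set, promoter sequences of 4 members are given, as the 250 bases before the annotated start. These 4 differed most between F4/80high TAMs and PECs among the members that had both a RefSeq promoter window and an ISRE core in it. The sequences are RefSeq's, build GRCm38.p6, written 5′ to 3′ on the gene's own strand, and capitals mark matches to the ISRE core, which is GAAA, any 2 bases, then GAAA, on either strand (on the opposite strand it reads TTTC, any 2 bases, TTTC). They lie at chr19:34640639-34640888 (Ifit1, plus strand), chr19:34583279-34583528 (Ifit3, plus strand), chr12:26456453-26456702 (Rsad2, minus strand) and chr4:156200819-156201068 (Isg15, minus strand).
Ifit1: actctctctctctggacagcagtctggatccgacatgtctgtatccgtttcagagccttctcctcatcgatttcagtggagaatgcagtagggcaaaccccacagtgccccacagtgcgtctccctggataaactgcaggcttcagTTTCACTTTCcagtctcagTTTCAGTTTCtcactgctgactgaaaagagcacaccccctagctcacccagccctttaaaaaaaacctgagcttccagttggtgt
Ifit3: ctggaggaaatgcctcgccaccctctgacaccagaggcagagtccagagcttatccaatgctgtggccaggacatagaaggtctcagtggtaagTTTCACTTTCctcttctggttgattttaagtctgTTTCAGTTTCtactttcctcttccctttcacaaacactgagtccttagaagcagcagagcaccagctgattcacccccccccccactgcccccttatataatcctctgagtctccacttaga
Rsad2: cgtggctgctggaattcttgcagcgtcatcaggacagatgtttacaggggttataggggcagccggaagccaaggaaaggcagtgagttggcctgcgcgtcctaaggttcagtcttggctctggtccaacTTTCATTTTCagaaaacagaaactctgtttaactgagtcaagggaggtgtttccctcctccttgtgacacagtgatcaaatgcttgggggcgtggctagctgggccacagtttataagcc
Isg15: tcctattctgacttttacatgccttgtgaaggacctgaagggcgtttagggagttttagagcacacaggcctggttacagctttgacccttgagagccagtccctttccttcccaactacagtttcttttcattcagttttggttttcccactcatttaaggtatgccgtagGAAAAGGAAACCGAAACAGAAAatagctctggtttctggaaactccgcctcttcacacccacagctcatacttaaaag
Ifit1 and Ifit3 each hold 2 separate cores on the opposite strand, Rsad2 holds 1, and in Isg15 a run of 3 cores overlap one another.

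RefSeq promoter windows, from 250 bases before to 50 after the start, were given for 29 of the 37 members. Mx1, Mx2, Oas2, Usp18, Rtp4, Ifi204, Parp9 and Parp14 had no window and were not searched. The ISRE core was present in 14 of the 29 (48.3%), and in 1079 of all 27025 genes with a window (3.99%). In the 150 bases before the start it was present in 11 of the 29 (37.9%) and in 499 of all genes (1.85%). 9 members held at least 2 cores: Ifit1, Ifit3, Isg15, Oas1a, Oas1g, Bst2, Ifitm3, Trim21 and Ifi205. The GAS letters, TTC, any 3 bases, then GAA, were present in 8 of the 29 members (27.6%) and in 9.55% of all genes, and 2 of the matches to the 2 motifs overlapped in the members. Holding the core did not sort the members by size of difference. Among the 13 measured members with a core, the log2 difference between F4/80high TAMs and PECs ran from 1.44 to 8.91 with a median of 3.76, and among the 15 without one it ran from 2.75 to 9.07 with a median of 3.77. Ifit2, with a fitted difference of 9.07 from PECs in which 1 of 3 arrays was above background, has no match in its 2 windows.

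**Figure D1:**
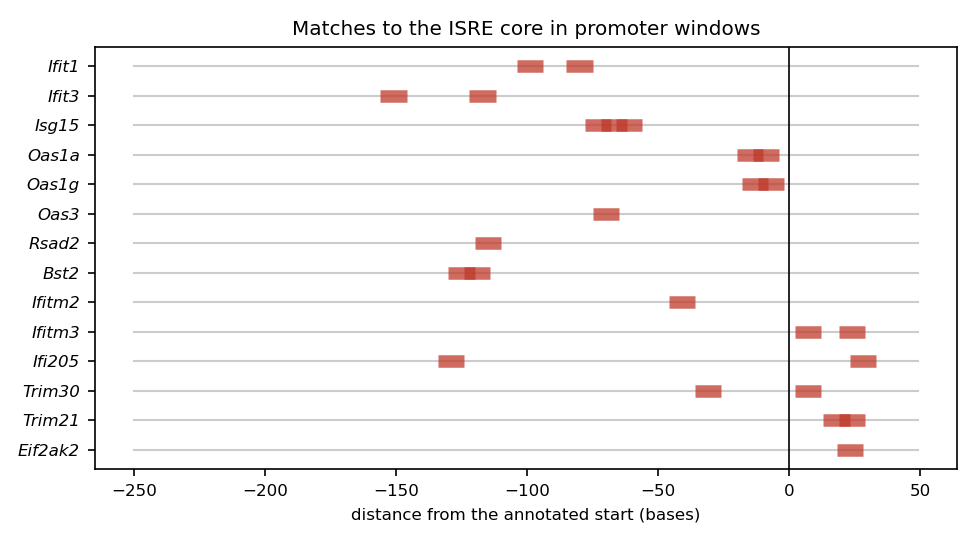
Position of each match to the ISRE core (GAAA, any 2 bases, GAAA), on either strand, in the promoter windows of the 14 members that hold one; the horizontal axis is the distance in bases from the annotated start, the vertical line marks the start, grey lines are the windows and red blocks the matches. The 2 blocks of Trim30 come from 2 different annotated starts, and darker stretches are where neighbouring matches overlap, as in Isg15, Oas1a, Oas1g, Bst2 and Trim21.

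The first comparison asks how macrophages with high F4/80 in the tumour differ from peritoneal ones. All 36 measured members were higher in F4/80high TAMs than in PECs (limma with Benjamini-Hochberg adjustment over all 16462 genes tested, adjusted p under 0.05), where 25.0% of all genes tested were called higher and 28.0% lower. Levels are log2 intensities relative to the 75th percentile of the array, differences are between group means on that scale, and levels are not compared between genes because probes differ in brightness. The median difference over the members was 4.07, and over all genes tested it was 0.00. In all 36 members the lowest F4/80high array stood above the highest PEC array, as it did for 31.2% of all genes. With the 3 members that were above background on no PEC array (Ifi44, Ifitm1 and Oas1g) set at a lower bound, the median was 3.95, and the difference was more than 16-fold for 17 members, more than 64-fold for 11 and more than 256-fold for 6 (Ifit1, Ifit2, Ifit3, Mx1, Mx2 and Cmpk2). Ifit1, Ifit2, Ifi44, Oas1g and Ifitm1 were not above background on all PEC arrays and entered the test only through the TAM groups, so the filter favoured a difference from PECs in them. The other 31 were well above background on all arrays of both groups, with a median difference of 3.77.

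**Figure D2:**
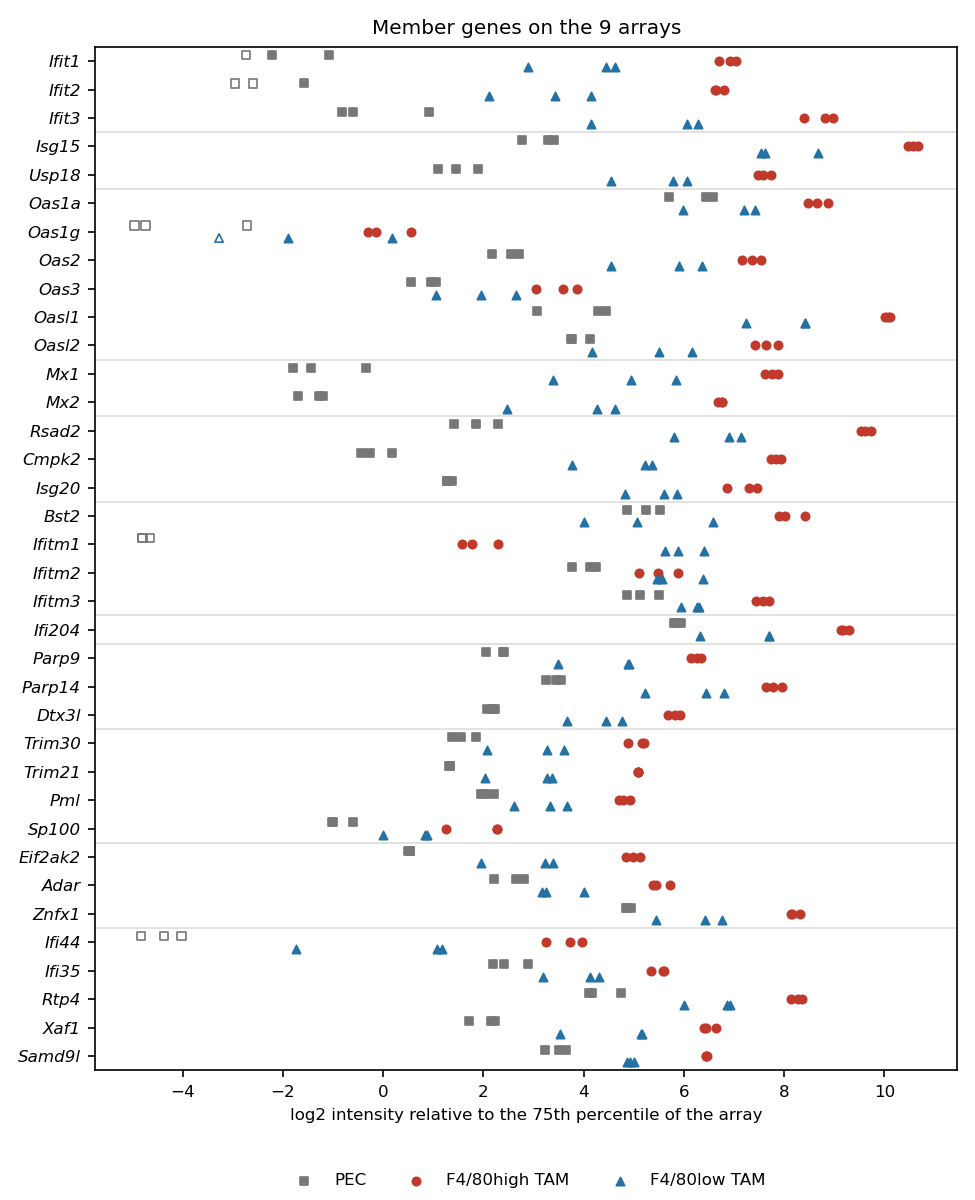
Level of each of the 36 members on each of the 9 arrays, as log2 intensity relative to the 75th percentile of the array (horizontal axis), ordered by role; grey squares are PECs, red circles F4/80high TAMs and blue triangles F4/80low TAMs, and open symbols are values not well above background. F4/80high arrays lie to the right of all PEC arrays in every row, and F4/80low arrays lie between them in most rows, with Ifitm1, Ifitm2, Bst2, Oas1a, Oas1g and Oas3 as exceptions.

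The IFIT proteins, which bind viral RNA ends and hold up its translation, had some of the greatest differences of the set. Ifit1 levels were -2.23, -2.74 and -1.08 in the 3 PEC replicates, 6.70, 6.93 and 7.05 in the F4/80high TAMs and 2.90, 4.62 and 4.45 in the F4/80low TAMs. The 3 groups did not overlap, and 2 of the 3 PEC arrays were above background. F4/80high TAMs exceeded PECs by 8.91 (SE 0.51, adjusted p = 1.90e-06). Ifit2 was -2.60, -2.96 and -1.57 in PECs, of which 1 was above background, 6.64, 6.79 and 6.63 in F4/80high TAMs and 2.10, 4.14 and 3.43 in F4/80low TAMs, and its difference was 9.07 (SE 0.50, adjusted p = 1.55e-06). Ifit3, above background on every array, rose by 8.90 (SE 0.60, adjusted p = 4.65e-06), from -0.83, -0.60 and 0.91 to 8.41, 8.81 and 8.98. The 3 probes lie within 73.6 kb of chromosome 19 (mm9, the build of the scanner files, 34650244 to 34723855). Near-identical copies of Ifit3 and of the Oas1 and Ifi200 genes exist in the mouse, and whether the probes also bind those copies was not tested.

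Isg15, the ubiquitin-like protein that is attached to other proteins and also secreted, differed clearly between all 3 groups. Its levels were 2.77, 3.29 and 3.40 in PECs, 10.57, 10.67 and 10.47 in F4/80high TAMs and 7.61, 7.54 and 8.68 in F4/80low TAMs. It rose by 7.42 in F4/80high TAMs (SE 0.31, adjusted p = 3.20e-07). Usp18, the protease that removes Isg15 and that also damps signalling at Ifnar2, rose by 6.12 (SE 0.37, adjusted p = 2.66e-06), with PEC levels of 1.10, 1.45 and 1.90 and F4/80high levels of 7.59, 7.73 and 7.48. The tag and the enzyme that takes it off thus rose in the same samples.

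The OAS family makes 2′-5′ oligoadenylates on double-stranded RNA; Oasl1 is a relative without that activity. All 6 members were higher in F4/80high TAMs, by 2.43 (Oas1a) to 6.13 (Oasl1). Oasl1 was 3.08, 4.29 and 4.45 in PECs, 10.11, 10.02 and 10.07 in F4/80high TAMs and 7.25, 8.43 and 8.42 in F4/80low TAMs. The F4/80high replicates of Oasl1 agreed within 0.05 (SD), while its PEC replicates had an SD of 0.75. Oas2 rose by 4.88 (SE 0.40, adjusted p = 1.46e-05), Oasl2 by 3.77 and Oas3 by 2.65 (SE 0.38, adjusted p = 0.000401). Oas1a, one of the active synthases, was already well above background in PECs, at 5.70, 6.44 and 6.58, against 8.65, 8.88 and 8.47 in F4/80high TAMs (difference 2.43, SE 0.38, adjusted p = 0.000625). Oas1g was not above background on any PEC array and was -0.31, -0.15 and 0.56 in F4/80high TAMs, at least 6.01-fold higher there. Such a bound sets the mean of the bright group against the dimmest signal that counts as above background on the arrays of the other group.

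The Mx proteins are GTPases that trap viral nucleocapsids, and laboratory strains such as C57BL/6J carry an Mx1 allele that makes no working protein, so the transcript is a readout of the response and not of Mx1 function. Mx1 was -1.80, -1.44 and -0.34 in PECs, 7.62, 7.88 and 7.75 in F4/80high TAMs and 3.38, 5.83 and 4.94 in F4/80low TAMs. Its difference between F4/80high TAMs and PECs was 8.95 (SE 0.57, adjusted p = 3.58e-06). For Mx2 the difference was 8.14 (SE 0.47, adjusted p = 2.08e-06), with F4/80high levels of 6.76, 6.77 and 6.69.

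Among enzymes that act on nucleotides and RNA, Rsad2 (viperin), which makes a chain-terminating nucleotide from CTP, was 1.41, 1.85 and 2.29 in PECs, 9.74, 9.53 and 9.62 in F4/80high TAMs and 5.80, 7.15 and 6.90 in F4/80low TAMs. Its neighbour Cmpk2, a nucleotide kinase whose probe lies 36.3 kb or less from that of Rsad2 on chromosome 12, was -0.26, -0.44 and 0.18 in PECs and 7.74, 7.85 and 7.95 in F4/80high TAMs. The pair rose by 7.78 (Rsad2, SE 0.35, adjusted p = 5.16e-07) and 8.02 (Cmpk2, SE 0.38, adjusted p = 7.26e-07). Isg20, an exonuclease that degrades single-stranded RNA, rose by 5.90 (SE 0.27, adjusted p = 6.30e-07).

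The membrane proteins behaved differently from one another. Ifitm1, Ifitm2 and Ifitm3 block fusion of enveloped virus with the cell and lie in 1 cluster on chromosome 7 (probes within 54.8 kb), and Bst2 (tetherin) holds budding virions at the surface. Bst2 was 4.87, 5.25 and 5.52 in PECs, 7.91, 8.02 and 8.42 in F4/80high TAMs and 5.07, 4.0 and 6.58 in F4/80low TAMs. In F4/80high TAMs it was higher by 2.90 (SE 0.54, adjusted p = 0.00168), while the F4/80low arrays lay on both sides of the PEC arrays. Ifitm3 rose by 2.41 (SE 0.20, adjusted p = 1.55e-05) and Ifitm2 by 1.44 (SE 0.29, adjusted p = 0.0029), the least of the 36. Ifitm1 was not above background on any PEC array and was 2.30, 1.56 and 1.77 in F4/80high TAMs, at least 21.6-fold higher. With the slide as a block, which leaves PEC replicate 1 as the only PEC sample compared, Ifitm2 (1.23, adjusted p = 0.0561) and Oas1g (2.75, adjusted p = 0.0792) no longer passed, and the other 34 did.

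Members that sense or edit RNA, add ADP-ribose or sit in nuclear bodies rose by 2.75 to 4.47. Eif2ak2 (PKR), the kinase that stops translation on double-stranded RNA, was 0.49, 0.53 and 0.53 in PECs, 5.13, 4.84 and 4.98 in F4/80high TAMs and 1.96, 3.24 and 3.40 in F4/80low TAMs, a difference of 4.47 between the first and second of these groups (SE 0.33, adjusted p = 7.92e-06). Adar, which edits double-stranded RNA and so keeps a cell's own RNA from being sensed, rose by 2.96, and the RNA helicase Znfx1 by 3.32. Parp14, Parp9 and Dtx3l, a group of ADP-ribosyl transferases and their E3 ligase partner encoded within 140 kb of chromosome 16, rose by 4.38, 3.98 and 3.64. In the tripartite-motif and nuclear-body group, Trim21, the cytosolic antibody receptor, was 1.33, 1.31 and 1.34 in PECs and 5.09, 5.09 and 5.08 in F4/80high TAMs, a rise of 3.76 (SE 0.31, adjusted p = 1.49e-05). Trim30, a dampener of NF-kappaB signalling, rose by 3.49, Sp100 by 2.80 and Pml, the organiser of PML bodies, by 2.75.

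Ifi204, a PYHIN sensor of DNA, was 5.86, 5.81 and 5.94 in PECs, 9.17, 9.15 and 9.31 in F4/80high TAMs and 6.31, 7.69 and 7.69 in F4/80low TAMs, and it rose by 3.34 in the F4/80high cells (SE 0.33, adjusted p = 4.37e-05). Ifi44, for which no PEC array was above background, was 3.25, 3.73 and 3.97 in F4/80high TAMs, at least 73.8-fold higher. Xaf1, a binding partner of the apoptosis inhibitor XIAP, rose by 4.46, Rtp4 by 3.92, Ifi35 by 3.00 and Samd9l by 2.99. 10 members had more than 1 probe. Where 2 probes of a gene were kept they gave the same sign, and they lay furthest apart for Xaf1, whose probes gave 4.46 and 2.89.

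**Figure D3:**
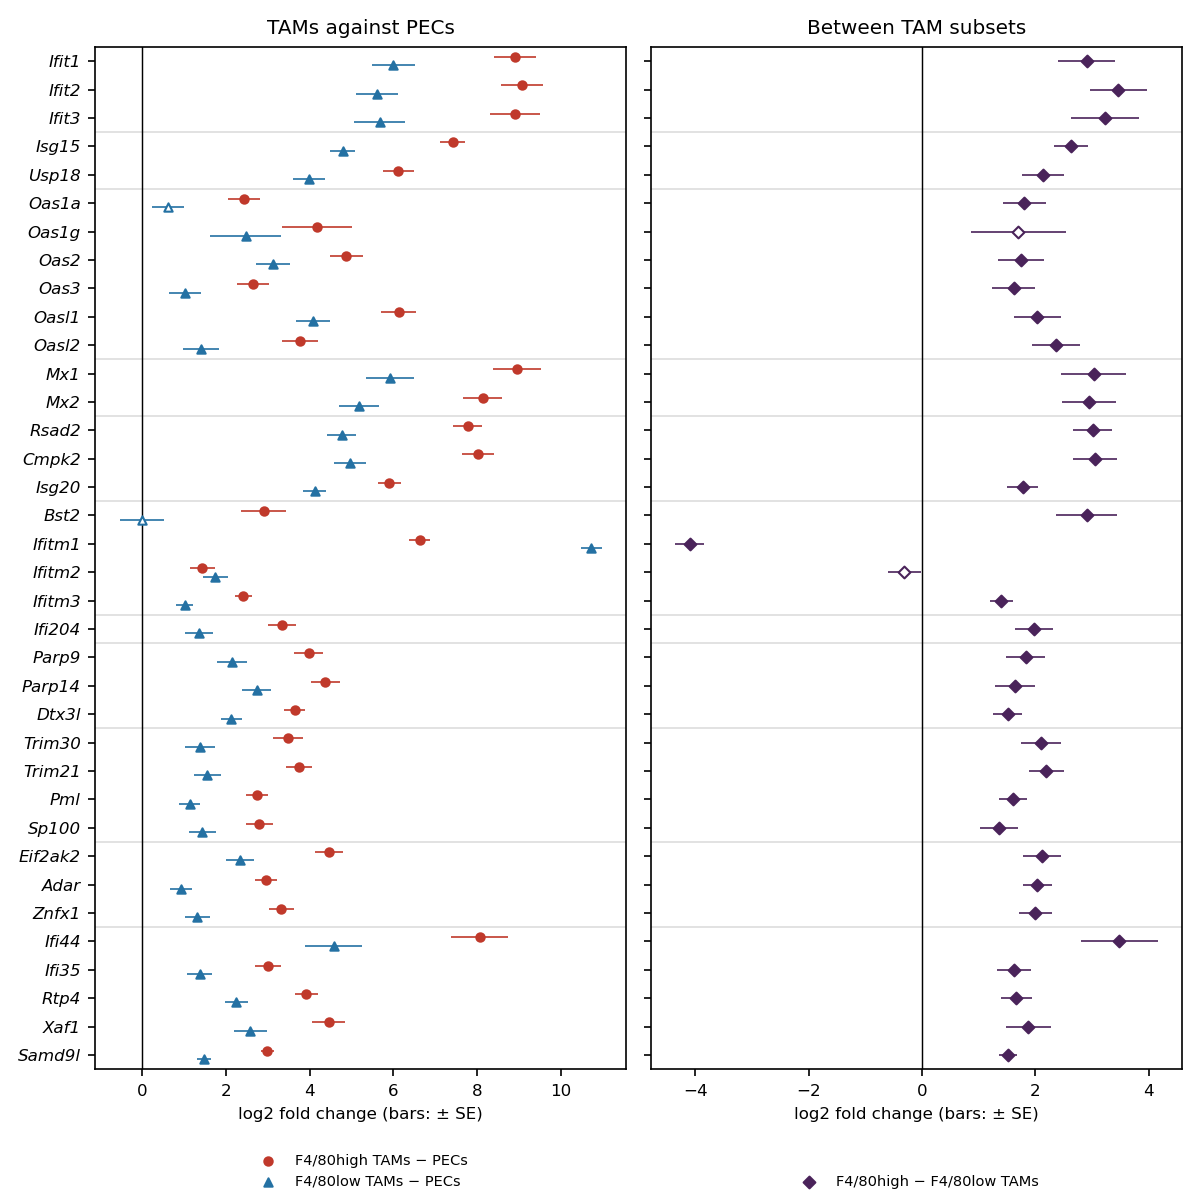
Log2 differences (points) with their standard errors from limma (bars) for the 36 members in the same order; the left panel shows F4/80high TAMs (red circles) and F4/80low TAMs (blue triangles) against PECs, the right panel F4/80high minus F4/80low TAMs (purple diamonds), and open symbols did not pass the adjusted p of 0.05. Points against PECs are fitted values also for Ifi44, Ifitm1 and Oas1g, which were above background on no PEC array; Ifitm1 is the member whose F4/80low point lies far to the right of its F4/80high point and whose diamond lies at -4.10.

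The second comparison sets F4/80low TAMs against the same 3 PEC arrays, so its values share their controls with those above. In F4/80low TAMs 34 of the 36 members were higher than in PECs, none was lower, and Oas1a and Bst2 did not pass; over all genes tested 22.7% were called higher and 29.2% lower. The median difference was 2.30 over the members and -0.09 over all genes. Of the 31 members above background on all arrays of both groups, 29 were called, with a median of 2.13. For 32 of the 36 the groups did not overlap, as for 26.1% of all genes in the same direction. Of the called genes as a whole 43.8% were higher, and 22.1% when each array was centred on its median, a centring that moved the median of all genes to -0.56 and left 26 members called.

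The same families led, at lower values. The IFIT genes rose by 6.00 (Ifit1, adjusted p = 2.33e-05), 5.60 (Ifit2, adjusted p = 3.11e-05) and 5.67 (Ifit3, adjusted p = 8.28e-05). Mx1 rose by 5.91, Mx2 by 5.19, Cmpk2 by 4.96, Rsad2 by 4.77 and Isg15 by 4.79 (SE 0.31, adjusted p = 5.06e-06). Without F4/80low replicate 1, Mx1, Mx2 and Ifit3 rose by 6.58, 5.84 and 6.34. Isg20, Oasl1 and Usp18 each rose by about 4 (4.12, 4.09 and 3.99), and Oas2 by 3.13. Ifi44 was -1.75, 1.07 and 1.17 in F4/80low TAMs, at least 6.59-fold above PECs, and that bound was 12.8-fold without replicate 1 and 4.65-fold without replicate 3. Ifitm1 stood apart from this order: at 6.41, 5.89 and 5.63 in F4/80low TAMs it was at least 369-fold above the PECs, where it was not above background (10.73 as fitted, SE 0.25, adjusted p = 2.85e-08).

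The ADP-ribosylation group rose by 2.73 (Parp14), 2.15 (Parp9) and 2.13 (Dtx3l), Xaf1 by 2.59, Eif2ak2 by 2.35 and Rtp4 by 2.25. The 4 tripartite-motif and nuclear-body genes rose by 1.14 (Pml) to 1.56 (Trim21). Adar rose by 0.92 (SE 0.26, adjusted p = 0.0152), Ifitm3 by 1.01 and Ifitm2 by 1.75. Within the OAS family the order was uneven. Oas1a was 5.98, 7.42 and 7.20 in F4/80low TAMs, overlapping the PECs, with a difference of 0.63 (SE 0.38, adjusted p = 0.191), and a second Oas1a probe gave 0.92 (adjusted p = 0.0427). Oas3 (1.04, adjusted p = 0.047) and Oas1g (2.47, adjusted p = 0.0338) passed narrowly with overlapping arrays, and lost their calls in 11 of 18 and 11 of 17 alternative analyses. Oas1g was 3.28 without F4/80low replicate 1, 1.56 without F4/80low replicate 3 and 3.19 without PEC replicate 1.

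Bst2 did not differ detectably, at 5.21 ± 1.30 (SD, n = 3) in F4/80low TAMs and 5.22 ± 0.33 (SD, n = 3) in PECs (SE of the difference 0.54, adjusted p = 0.997). Its F4/80low value rested on single arrays: the difference was 0.61 without replicate 2 and -0.68 without replicate 3, neither past the test. PEC replicate 1 was hybridised on the slide that held all 6 TAM arrays, and PEC replicates 2 and 3 on another. With slide as a block 26 members were called in F4/80low TAMs, and 24 within the shared slide. Both fits set the TAMs against PEC replicate 1 alone, with the spread of that lone sample taken from the other arrays, and so give the same differences, with a median of 2.24. For F4/80high TAMs both gave 34 members and a median of 4.03.

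The third comparison sets the TAM subsets, which came from the same kind of tumour and 1 slide, against each other. F4/80high TAMs had more of 33 of the 36 members than F4/80low TAMs and less of 1, Ifitm1, while Ifitm2 and Oas1g did not pass; over all genes tested 18.6% were called higher and 14.0% lower. The median difference was 1.99 over the members and 0.08 over all genes. The 33 did not overlap between the subsets, as for 27.0% of all genes in that direction, and Ifitm1 did not overlap in the other, as for 19.7%. Of all called genes 57.1% were higher, and 75.9% when arrays were centred on their medians, with 35 members then called.

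Among members higher in F4/80high TAMs, the largest gaps between subsets were those of Ifi44 (3.49, SE 0.68, adjusted p = 0.00405), Ifit2 (3.47, SE 0.50, adjusted p = 0.000914) and Ifit3 (3.23, SE 0.60, adjusted p = 0.0032), and that of Ifi44 was 2.53 without F4/80low replicate 1. Cmpk2, Mx1 and Rsad2 followed at 3.05, 3.03 and 3.01, then Mx2 at 2.95, and Ifit1 and Bst2 at 2.90. For Bst2 the gap was 2.30 without F4/80low replicate 2 and 3.58 without replicate 3, both past the test. Isg15 differed by 2.63 (SE 0.31, adjusted p = 0.000311), Oasl2 by 2.37, Usp18 by 2.13 and Oasl1 by 2.04. Adar and Znfx1, which exceeded PECs by 0.92 and 1.32 in F4/80low TAMs, differed between the subsets by 2.03 and 2.00. A second Adar probe gave 1.36 for F4/80low TAMs against PECs and 0.94 between the subsets. The smallest called gaps were those of Sp100 (1.36, adjusted p = 0.0124), Ifitm3 (1.40), Dtx3l (1.51) and Samd9l (1.52). Sp100 missed the threshold without F4/80high replicate 2 (1.19, adjusted p = 0.0516), and the second probes of Xaf1 (0.47) and Adar (0.94) did not pass.

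Over the whole set the means ran PEC, F4/80low, F4/80high from lowest to highest in 33 members. In Ifitm1 and Ifitm2 the F4/80low TAMs were highest, and in Bst2 the F4/80low mean lay below the PEC mean by less than its spread. Neighbouring steps that did not pass the test were PEC to F4/80low for Oas1a and Bst2, and F4/80low to F4/80high for Oas1g and Ifitm2. Oas1g was -3.28, -1.89 and 0.17 in F4/80low TAMs and differed from F4/80high TAMs by 1.70 (SE 0.84, adjusted p = 0.157), but by 2.62 without F4/80low replicate 3 (adjusted p = 0.0231) and 0.90 without F4/80low replicate 1.

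Ifitm1 and Ifitm2 departed from the rest. Ifitm1 was lower in F4/80high than in F4/80low TAMs, with a log2 difference of -4.10 (SE 0.25, adjusted p = 1.30e-05), and it stayed between -4.31 and -3.88 when any 1 array was left out. Ifitm2 was 5.88, 5.48 and 5.10 in F4/80high TAMs and 6.37, 5.57 and 5.46 in F4/80low TAMs, which overlap (-0.31, SE 0.29, adjusted p = 0.46). Ifitm3, from the same chromosome 7 cluster, kept the order of the other members, at 7.45, 7.69 and 7.59 against 6.27, 6.31 and 5.95. Of these neighbouring genes, 1 was thus higher in F4/80high TAMs, 1 was lower and 1 did not pass the test.

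**Figure D4:**
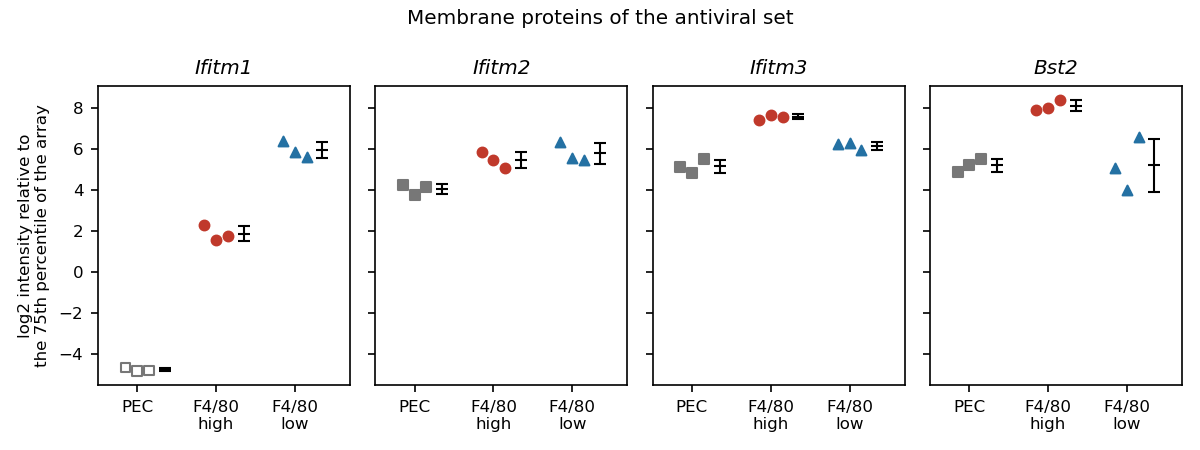
Levels of Ifitm1, Ifitm2, Ifitm3 and Bst2 on each array (symbols; vertical axis, log2 intensity relative to the 75th percentile of the array) with the group mean and SD (black bars, n = 3); open squares are not well above background. Ifitm1 is highest in F4/80low TAMs, Ifitm3 and Bst2 are highest in F4/80high TAMs, and the Bst2 values of F4/80low TAMs spread from 4.0 to 6.58.

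The 2 TAM subsets also differed in how closely their replicates agreed. The median SD of a member was 0.135 in F4/80high TAMs, 0.276 in PECs and 0.792 in F4/80low TAMs, and the F4/80low SD exceeded the F4/80high SD in 35 of 36 members. F4/80low replicate 1 was the lowest of its group in 30 members; the exceptions were Isg15, Adar, Bst2 and the 3 Ifitm genes. The median member level of that array was 3.97, against 5.27 and 5.19 in replicates 2 and 3. Summed intensities of 7 neutrophil marker genes, relative to each array's 75th percentile, were 6020 in replicate 1 and 2180 and 1830 in replicates 2 and 3. The same sums were 221 to 322 in F4/80high TAMs and 118 to 154 in PECs, with Csf3r the brightest marker in both groups. Csf3r did not differ detectably between the TAM subsets (0.005, adjusted p = 0.986). The other 6 were lower in F4/80high than in F4/80low TAMs, as were 14.0% of all genes. In F4/80high TAMs against PECs 3 were higher and 1, Mmp8, was lower (at least 20.9-fold), beside 25.0% and 28.0% of all genes. Cxcr2 was above background on no F4/80high or PEC array, nor was Mmp8 in F4/80high TAMs or Retnlg in PECs. The part of these transcripts in the member values was not tested, and in bulk samples fewer cells of a type and less RNA per cell cannot be told apart. Without F4/80low replicate 1 the members called were 35 against PECs and 34 between the subsets, with medians of 2.71 and 1.57. Leaving it out moved the gap between subsets by more than 1.5 times for Ifi44, Ifit3 (to 2.56), Mx1 (to 2.36) and Mx2 (to 2.29), all still past the test, and for Oas1g.

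Of the other marker lists, the sums of those of T and NK cells and of B cells did not overlap between the subsets. No B cell gene was above background on all arrays of any group. T and NK cell markers (9 measured) summed to 39 to 52.6 in F4/80low TAMs, 19.9 to 24 in F4/80high TAMs and 14.1 to 20.6 in PECs. Cd4 and Nkg7 were the brightest of them in F4/80high TAMs and PECs. Cd3d, Cd3g, Cd8a and Gzma were above background in F4/80low TAMs only. Of the 7 tested, 5 were lower in F4/80high than in F4/80low TAMs (14.0% of all genes were), and Cd3e and Cd4 did not pass. Cd4 was higher in F4/80high TAMs than in PECs (0.91, adjusted p = 0.0255). Ncr1 was above background on no array and Klrb1c on 2 F4/80low arrays. Conventional dendritic cell markers summed to 33.3 to 79.5 in F4/80low TAMs, 34.8 to 43.6 in F4/80high TAMs and 0.468 to 0.848 in PECs, and the TAM sums overlapped. Its brightest marker, Ccr7, did not pass between the subsets (-0.23, adjusted p = 0.836), Zbtb46 was higher in F4/80high TAMs (at least 11.8-fold) and Flt3 was lower there (at least 9.16-fold). Plasmacytoid dendritic cell markers summed to 312 to 342 in F4/80high TAMs, 225 to 331 in F4/80low TAMs and 159 to 223 in PECs. Siglech was the brightest of them in every group. Between the subsets Siglech, Ccr9, Pacsin1 and Cox6a2 did not pass. Ly6d was lower in F4/80high than in F4/80low TAMs (at least 1.97-fold) and above background on no F4/80high array. Klk1 was above background on no array. B cell markers summed to at most 1.45 and fibroblast markers to at most 5.21 in every group. Of 8 macrophage markers, 8 were above background on all PEC and F4/80high arrays and 7 on all F4/80low arrays, where Mertk was not; their sums were 947 to 1140, 849 to 1300 and 570 to 850. Adgre1, the gene for F4/80, averaged 5.88 in PECs, 5.94 in F4/80high and 2.89 in F4/80low TAMs, in the direction of the sort. The part of any of these lists in the member values was not tested.

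**Figure D5:**
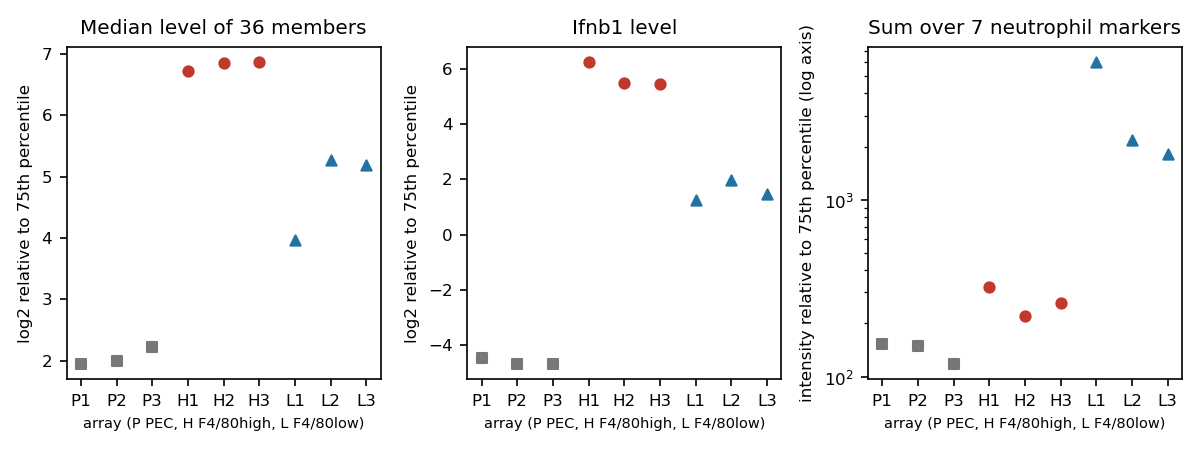
Values on each of the 9 arrays (P PECs, H F4/80high TAMs, L F4/80low TAMs, numbered by replicate): left, the median log2 level of the 36 members; middle, the log2 level of Ifnb1; right, the summed intensity of 7 neutrophil markers on a log axis. Replicate 1 of the F4/80low TAMs has the lowest median of the 6 TAM arrays (3.97) and the highest neutrophil sum (6020). Its Ifnb1 level (1.24) is also the lowest of the TAM arrays.

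Upstream of the effectors, the ligand genes differed sharply. Ifnb1, interferon beta, was not above background in PECs, was 6.25, 5.50 and 5.44 in F4/80high TAMs and 1.24, 1.99 and 1.47 in F4/80low TAMs. In the former it was at least 312-fold above PECs and in the latter at least 17.4-fold, and the subsets differed by 4.16 (SE 0.27, adjusted p = 1.53e-05). Ifng, interferon gamma, had the opposite order. It was 0.69, 2.37 and 1.49 in F4/80low TAMs, at least 16.8-fold above PECs, it was above background on 1 of 3 F4/80high arrays, and it was lower in F4/80high than in F4/80low TAMs (adjusted p = 0.000862), by an amount that the values near background do not fix. Ifna1 passed the background filter in F4/80high TAMs, at least 1.92-fold above PECs, and Ifna2 and Ifna4 were above background on no array.

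Of 32 other genes of the pathway, 30 were tested. In F4/80high TAMs against PECs 19 were higher and 1 lower, beside 25.0% and 28.0% of all genes tested. In F4/80low TAMs against PECs 16 were higher and 11 lower, beside 22.7% and 29.2% of all genes. In F4/80high against F4/80low TAMs 23 were higher and 1 lower, beside 18.6% and 14.0%. The median differences of the 30 genes in these comparisons were 1.91, 0.95 and 1.45. None of the 4 receptor genes was called higher against PECs. In F4/80low TAMs all 4 were lower than in PECs, by -1.50 (Ifnar1), -1.30 (Ifnar2), -0.98 (Ifngr1) and -0.79 (Ifngr2), and in F4/80high TAMs Ifngr1 fell by 1.10 while the other 3 did not pass. Jak2 rose by 3.28 in F4/80high TAMs and by 1.59 in F4/80low TAMs, whereas Jak1 fell by 0.57 in the latter.

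Of 8 transcription factors, which include those that bind the ISRE and GAS elements, 6 rose in F4/80high TAMs and none fell, and in F4/80low TAMs 5 rose and 3 fell. Over all genes 25.0% were higher and 28.0% lower in F4/80high TAMs, and 22.7% and 29.2% in F4/80low TAMs. Irf7, which amplifies type I interferon production, rose by 5.52 in F4/80high TAMs (SE 0.48, adjusted p = 1.87e-05) and 2.89 in F4/80low TAMs. Irf1 rose by 4.26 and 3.44, Stat2 by 3.68 and 1.80 and Irf9 by 1.70 and 0.92. Irf3, which acts before interferon is made, did not pass in F4/80high TAMs and fell by 0.54 in F4/80low TAMs.

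Of 9 sensors of nucleic acid and adaptors, 8 were higher in F4/80high TAMs than in PECs, beside 25.0% of all genes. In F4/80low TAMs 5 were higher than in PECs and 2 lower, beside 22.7% and 29.2% of all genes. Ifih1 (MDA5) rose by 4.73 in F4/80high and 2.13 in F4/80low TAMs, and Ddx58 (RIG-I) by 4.43 and 2.64. In the same order, Zbp1 rose by 4.01 and 2.14, Dhx58 by 3.94 and 1.52 and Cgas by 2.77 and 0.98. Sting1, the adaptor downstream of Cgas, rose by 2.11 in F4/80high TAMs and gave 0.08 in F4/80low TAMs (SE 0.33, adjusted p = 0.852). Mavs, the adaptor for Ddx58 and Ifih1, was the exception in F4/80high TAMs (-0.07) and fell by 1.00 in F4/80low TAMs. The feedback inhibitors Socs1 and Socs3 rose by 7.80 and 9.20 in F4/80high TAMs and by 4.80 and 5.78 in F4/80low TAMs. All 9 sensors and adaptors were higher in F4/80high than in F4/80low TAMs, as were 18.6% of all genes.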

How the data were processed

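RNA of 9 samples was hybridised to 1-colour Agilent arrays. Per the file headers, the authors' intensities were extracted with Agilent Feature Extraction 10.5.1.1, with probe positions on mm9; the processed signal used here is background-subtracted by that program. The deposited value table holds log2 values whose normalization is not given in the sources used here, and served only as an alternative.

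Processed signals were taken as log2 after dividing by the array's own 75th percentile (59305 spots, controls left out). Outlier spots were left out and spots of a probe averaged. Of 55681 probes, 21197 passed the scanner's background call in every replicate of 1 group or more, and the brightest per gene gave 16462 genes. Between 36.1% and 38.3% of spots per array were well above background and none was saturated; 3 arrays a group limit the precision. Gene symbols were updated through RefSeq accessions, which renamed 3093 probes and no member. limma 3.58.1 in R 4.3.3 fitted all 9 arrays together (lmFit, eBayes, two-sided, Benjamini-Hochberg per comparison, 0.05), and the method was checked on simulated data. Every member was named. The members, gene lists and marker lists were chosen with earlier results of these data known. Some genes of the pathway list, counted in its totals, are not reported here by name. P-values measure the spread between these samples.

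Same-numbered F4/80high and F4/80low arrays deviated together (residual correlations 0.233, 0.171 and 0.134), so the numbers were taken to pair those subsets. PECs were not paired with them. The main fit did not use this pairing, so the differences, SEs and adjusted p-values printed between the subsets are unpaired. It entered only as an alternative, the replicate block. Alternatives changed the normalization, background correction, filter, probe rule, gene names, samples fitted, slide and replicate block, or left out each array.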

Additional observations from a re-analysis of the deposited data

How the results depend on the processing

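No result changed direction while called. The 36, 34 and 34 members called (F4/80high against PEC, F4/80low against PEC, F4/80high against F4/80low) stayed 36, 34 and 34 with the replicate block. Pairing thus changed no member's call, while calls between the subsets over all genes went from 5368 to 5186. The first median, 4.07, was 3.92 with median centring, 3.93 with quantile normalization, 3.66 with normexp correction, 3.77 over the 31 members above background on all arrays, 3.95 with the mean over probes and 3.61 in the deposited value table; the cause was not tested. Leaving out single arrays gave medians of 3.87 to 4.19, 2.00 to 2.71 and 1.57 to 2.22, and 36, 30 to 35 and 33 to 35 members called. Over 18, 18 and 16 alternatives, 639 of 643, 594 of 643 and 567 of 571 member values kept their call. In F4/80low TAMs against PECs, calls were lost in Oas1g and Oas3 (11 alternatives each), Oasl2 (7), Adar (4), Ifi204, Pml and Trim30 (3 each), Znfx1 (2), and Ifi35, Ifitm3, Sp100 and Trim21 (1 each), and Oas1a gained one without F4/80low replicate 1 (1.07, adjusted p = 0.0137). Between subsets Xaf1 lost its call with the mean over probes (1.17, adjusted p = 0.0546) and Oas1g gained one with median centring (2.02, adjusted p = 0.0458). Uncalled differences that turned sign were those of Bst2 in F4/80low TAMs against PECs (0.01 to 0.61 in 9 alternatives) and Ifitm2 between subsets (0.00 with median centring). Over all genes, calls of 8737 and 8542 against PECs became 5631 and 4904 with slide as a block and 4894 and 4127 within slide 1, and the second was 14388 without the filter on dim probes. Members not above background in PECs have only a bound there. The ISRE core was found in 14 of the 29 members with a promoter window, and in 11 within 150 bases before the start.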
